A study of Mus musculus with 3 samples.

Results

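Expression of 9 genes of the B-lymphoid program was examined in LT-HSCs, the long-term stem cells of the bone marrow from which every blood lineage descends. The genes were Ebf1, Pax5, Cd79a, Cd79b, Blnk, Cd22, Ms4a1, Rag1 and Dntt. They were chosen by name, and every array probe carrying one of these gene names was taken, which gave 16 probes of 56605 and 9 genes of 37008. Cd22 had 4 probes, Ebf1 had 3, Pax5 and Ms4a1 had 2 each, and the other 5 genes had 1 each. By the brightest probe of a gene, 7 of the 9 were well above background on all 3 arrays, against 68.7% of all genes. Ebf1 was at the edge of background, and Rag1 was not above it. No gene was called 2-fold different between genotypes by that probe, although the WT value of Ebf1 was not well above background and for Rag1 no fold could be given. Among probes well above background on all 3 arrays, those of the same gene differed in signal up to 72.5 times on 1 array. Probes of Cd22, Pax5 and Ebf1 also differed in direction in at least 1 comparison.

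LT-HSCs of C57BL/6J mice were sorted from bone marrow of WT, AtmsKO and Atmp38dKO animals. AtmsKO mice carried CAG-CreERT2 and Atm flox/flox, and Atmp38dKO mice carried the same with p38α flox/flox added (p38α is the product of Mapk14). CAG is a promoter active in nearly all tissues, so Cre was not restricted to blood cells. Tamoxifen was given to all groups, and the controls were floxed mice without Cre per the methods. The series text places tamoxifen at about 5 weeks of age and the analysis 4 weeks later, while the sample labels give an age of 11 weeks. The label describes a sort for CD150+CD48-Flt3-CD34- cells within the lineage-negative, Sca-1+, c-Kit+ (LSK) fraction. The lineage antibodies of the methods include B220, a surface marker of B cells and their precursors. For each genotype, Cy3-labelled RNA went onto 1 Agilent whole-genome array. How many mice gave the RNA of an array is not stated, there are no replicates, and each comparison is one of arrays, with no p-value. Both comparisons against WT use the same WT array.

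Between 68.9% and 77.7% of probes were well above background on an array, a flag that the scanner software sets for each spot, and no probe was saturated. The lowest signal so flagged was 5.33 in WT, 6.12 in AtmsKO and 4.97 in Atmp38dKO. All 12 LT-HSC markers examined were well above background on every array, Kit being the brightest with signals of 2652, 2773 and 3248. Genes whose products the sort selected against were not at background either. All 8 of them were well above background on the WT and AtmsKO arrays and 7 in Atmp38dKO. The brighter of 2 Itgam probes (Itgam encodes part of Mac-1) read 33134, 32383 and 33895. The 2 Atm probes read 87.0 and 88.8 in WT, 23.9 and 16.3 in AtmsKO, and 86.5 and 49.0 in Atmp38dKO. The 2 Mapk14 probes read 469 and 295, then 558 and 260, then 616 and 345, and after scaling they differed by 0.18 and 0.01 for Atmp38dKO against WT and by -0.15 and 0.12 for Atmp38dKO against AtmsKO (log2). The array labelled Atmp38dKO thus was not lower than WT by either probe, although whether the probes lie in the deleted exons is not given in the sources used here. That array is therefore named by its label only. Below, values follow the order WT, AtmsKO, Atmp38dKO unless the array is written beside them.

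B lymphopoiesis starts when progenitors switch on a small set of transcription factors. EBF1 and PAX5 open and then hold the B cell program, RAG1 cuts the immunoglobulin genes, and terminal transferase adds bases at the joints. CD79A and CD79B carry the signal of the B cell receptor, BLNK passes it on, and CD22 and CD20 (the product of Ms4a1) sit beside the receptor on the B cell surface. LT-HSCs lie far upstream of these steps and are not regarded as expressing the mature program. In bulk RNA, fewer cells of a type and less RNA per cell cannot be told apart.

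Probes of 1 gene gave very different signals, so the probe sequences are shown before the values. Each probe is 60 bases long, and positions in the transcript are those of the array file. The Cd22 probe at position 3211 was the brightest of the 4, and its first 30 bases are given with the repeat of the unit CCAA in capitals. The other Cd22 probes shown, the bright Pax5 probe and the Cd79a probe are written whole.
Cd22 3211, first 30 bases: gaaaaatgaaaaaCCAACCAACCAACCAAa
Cd22 2745: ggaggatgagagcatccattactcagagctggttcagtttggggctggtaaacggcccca
Cd22 670: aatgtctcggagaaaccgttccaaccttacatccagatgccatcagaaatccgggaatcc
Pax5 566: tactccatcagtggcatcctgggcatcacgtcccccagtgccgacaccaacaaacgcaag
Cd79a 321: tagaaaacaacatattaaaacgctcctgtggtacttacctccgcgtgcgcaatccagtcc

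On build mm9, per the file headers, the Cd22 probe at position 3211 lies at chr7:31651249-31651308 and the one at 2745 at chr7:31651590-31651649. The Cd22 probe at position 670 covers chr7:31661143-31662467 and the Cd79a probe chr7:25684357-25684614, stretches of 1325 and 258 bases for a probe of 60, so both probes cross a splice junction. The Pax5 probe at position 566 lies at chr4:44692322-44692381. An annotation of mm9 was not used here, so exon and UTR bounds are not given.

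Of the 9 genes, 7 were well above background in WT and 8 each on the AtmsKO and Atmp38dKO arrays, taking the brightest probe of a gene. All genes of the arrays stood at 75.6%, 71.5% and 79.8% by the same measure. Over probes, 10 of 16 were well above background on all 3 arrays, against 65.8% of all probes. Rag1 was the 1 gene not well above background on any array, and Ebf1 was the gene that passed on the mutant arrays but not in WT with its brightest probe.

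**Figure D1:**
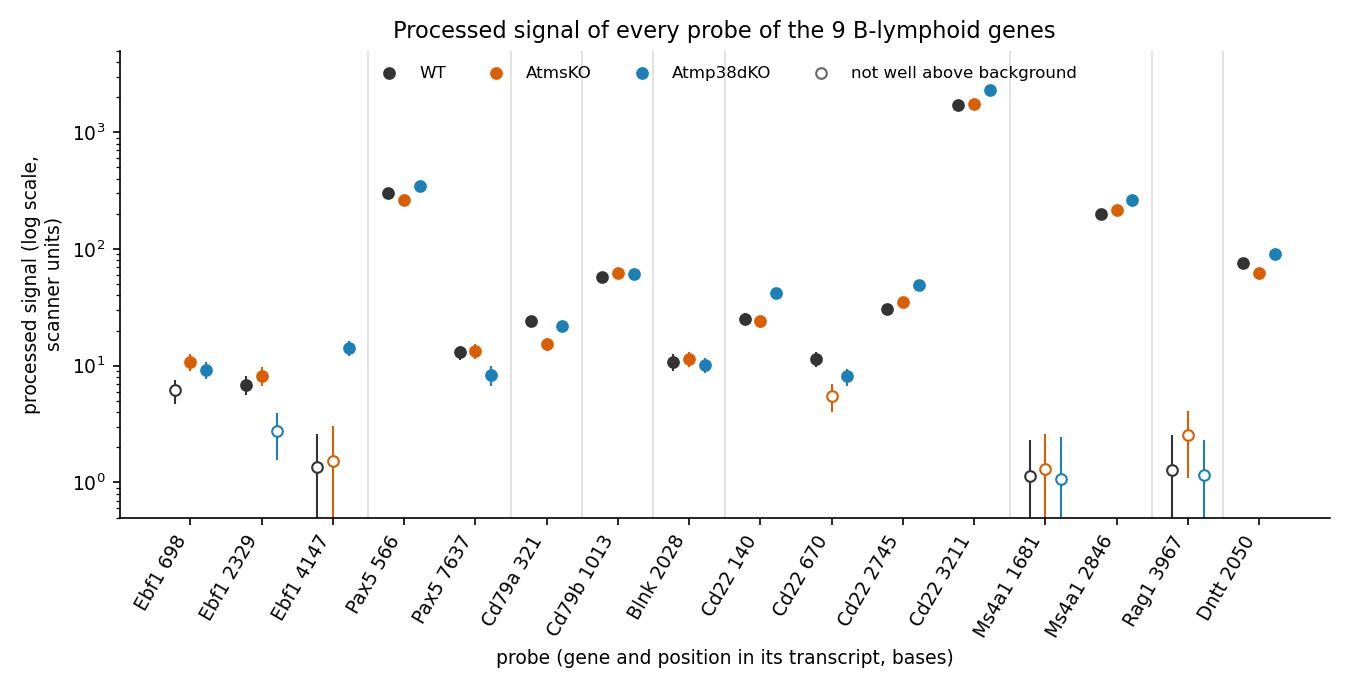
Processed signal (log scale, scanner units) of the 16 probes of the 9 genes, labelled by gene and transcript position in bases, on the WT, AtmsKO and Atmp38dKO arrays. Vertical lines are the error that the scanner software gives each spot, cut off at the lower edge of the plot, and open circles are spots not well above background. The Cd22 probe at 3211 lies between 1724 and 2287, and the other Cd22 probes lie at or under 49.0.

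The differences between arrays below are log2 values after each array was scaled to its 75th percentile, with the error that the scanner software assigns to the spots. That error covers the spot and not the animals, and was at least 0.20 for a difference. As a second measure of error, 291 probes well above background in WT were each printed at many spots. Their log2 signals had a median SD of 0.05 over spots of that array, which rose to 0.33 for probes with signals between 5 and 15. It was 0.25 for the 10 probes with signals between 15 and 50, the range of Cd79a and of the Cd22 probes at 140 and 2745. That spread of single spots was already larger than the spot error given below for differences of these probes.

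Ebf1, which acts upstream of Pax5, was near background on all 3 arrays, and its probes gave no common direction for Atmp38dKO against either other group. The probe at position 698 read 6.14 ± 1.40 in WT (signal with its spot error), not well above background, 10.8 ± 1.79 in AtmsKO and 9.24 ± 1.49 in Atmp38dKO. The AtmsKO signal of that probe was 1.86-fold higher than WT, and the Atmp38dKO signal 1.30-fold higher. In log2 these were 0.90 ± 0.41 and 0.38 ± 0.40, set against a WT value not well above background. The probe at 2329 read 6.90 ± 1.28, 8.23 ± 1.49 and 2.74 ± 1.20, the last not well above background. Here the array labelled Atmp38dKO was the low one, with WT at least 1.61-fold higher and AtmsKO at least 2.03-fold higher. The probe at 4147 read 1.35 ± 1.23 in WT and 1.52 ± 1.52 in AtmsKO, neither well above background, and 14.1 ± 2.12 in Atmp38dKO, at least 2.28-fold higher than WT. For AtmsKO against WT the probes at 698 and 2329 were both higher, the latter by 0.33 ± 0.37 (log2), within the spot error. With normexp background correction the difference at 698 was 0.15. No direction is given for Atmp38dKO against WT, since each probe has a value at background on 1 side. That difference of the probe at 698 turned from 0.38 to -0.10 (log2) with normexp.

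Pax5, the factor that commits cells to the B lineage, was read well above background on all arrays by both probes, at different heights. The probe at position 566 gave 304 in WT, 264 in AtmsKO and 345 in Atmp38dKO. After scaling, these differed by -0.13 ± 0.20 for AtmsKO against WT and by -0.03 ± 0.20 for Atmp38dKO against WT, both within the spot error. The probe at 7637 gave 13.0, 13.3 and 8.37, close to the lowest signals flagged as above background. It was lower in Atmp38dKO by -0.85 ± 0.35 against WT and by -0.96 ± 0.35 against AtmsKO, while it differed by 0.11 ± 0.29 between AtmsKO and WT. The bright probe read 23.3 times the dim one in WT, 19.9 times in AtmsKO and 41.3 times in Atmp38dKO.

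Cd79a and Cd79b, which encode the paired signaling chains of the B cell receptor, had 1 probe each. Cd79a read 24.0 in WT, 15.4 in AtmsKO and 21.8 in Atmp38dKO. AtmsKO was the lowest, by -0.56 ± 0.24 against WT, which was more than 2 times the spot error, and Atmp38dKO lay between them at -0.35 ± 0.22 against WT. With normexp background correction the AtmsKO difference was -0.12, and Atmp38dKO was at -0.04 against AtmsKO instead of 0.21. Cd79b read 57.3, 62.9 and 60.6, and here AtmsKO was the highest after scaling, by 0.21 ± 0.21 against WT. The chains therefore differed in opposite directions between AtmsKO and WT, the difference of Cd79b being about the size of its spot error.

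Blnk, the adaptor that links the receptor's kinases to phospholipase C, read 10.9 in WT, 11.4 in AtmsKO and 10.2 in Atmp38dKO. The signals were low but well above background on every array. The differences from WT were 0.15 ± 0.32 for AtmsKO and -0.31 ± 0.32 for Atmp38dKO, within the spot error.

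Cd22 encodes an inhibitory coreceptor of the B cell receptor, and its signals varied more between probes than between arrays. The probe at position 3211 read 1724 in WT, 1739 in AtmsKO and 2287 in Atmp38dKO. After scaling, it differed by 0.09 ± 0.20 and 0.19 ± 0.20 from WT, both within the spot error. The probe at 2745, its nearest neighbour on the chromosome, read 30.7, 35.1 and 49.0. The probe at 140, designed on a predicted transcript, read 25.3, 24.0 and 42.0. Both were higher in Atmp38dKO than in WT, by 0.46 ± 0.21 and 0.52 ± 0.22, and each of these differences was more than 2 times the spot error. The junction probe at 670 went the other way, reading 11.4 in WT, 5.48 in AtmsKO, not well above background, and 8.10 in Atmp38dKO, which was -0.71 ± 0.32 against WT. Thus 3 of the 4 Cd22 probes were higher and 1 was lower in Atmp38dKO than in WT.

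Among the 3 Cd22 probes well above background on all arrays, the brightest read 68.3 times the dimmest in WT, 72.5 times in AtmsKO and 54.5 times in Atmp38dKO. Of the 7758 genes with at least 2 such probes, 5.18%, 4.92% and 6.41% had a ratio that large on the respective array, and the median ratio was between 4.09 and 4.19. For Pax5 the shares were 13.1%, 15.4% and 7.99%. A signal is not an amount of RNA, so these ratios compare probes and not transcripts. The bright Cd22 probe had few distinct trimers, 22, and 0.359% of all probes had that many or fewer, while the other Cd22 probes had between 35 and 39.

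A shorter form of the repeat printed in capitals, the unit CCAA repeated 3 times in a row, was then sought in all probes. It occurred in 4 of 56605 probes as written, the bright Cd22 probe included, 0.00707%, and in 3 probes on the opposite strand. The other genes with the repeat as written were Dennd4a, Gm8479 and Tspan18. The Dennd4a probe shared a run of 21 bases with the bright Cd22 probe and read 1589 in WT, 1498 in AtmsKO and 1891 in Atmp38dKO. The Gm8479 probe read 1341, 1392 and 1690. The Tspan18 probe read 20.9, 17.9 and 29.8, so of the 3 other probes with the repeat, 2 were bright and 1 was dim. The other Cd22 probes shared at most 14 bases with a probe of another gene. Whether the repeat has a part in the bright Cd22 signal was not tested.

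Ms4a1, the gene of CD20, was also read differently by its probes. The probe at position 2846 read 200 in WT, 217 in AtmsKO and 261 in Atmp38dKO, and after scaling it was higher than WT by 0.19 ± 0.20 and 0.17 ± 0.20, within the spot error. The probe at 1681 read 1.14, 1.31 and 1.06 and was not well above background on any array. The signals of Ms4a1 therefore come from 1 of its 2 probes, the one matched in the file to an Ensembl transcript.

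Rag1 encodes the catalytic part of the V(D)J recombinase, and its probe read 1.27 in WT, 2.57 in AtmsKO and 1.15 in Atmp38dKO. None of these was well above background, and no fold is given. Dntt encodes terminal transferase, which is found in early lymphoid progenitors, and its probe was well above background on all arrays with signals of 75.9, 61.9 and 90.7. The AtmsKO array was the lowest, by -0.22 ± 0.21 against WT, and the Atmp38dKO array differed from WT by 0.04 ± 0.21. The partner of Rag1, Rag2, was likewise not well above background on any array.

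A gene was called different if its brightest probe differed at least 2-fold and was well above background on the brighter array. None of the 8 genes that could be considered was called in any of the 3 comparisons, in either direction. For AtmsKO against WT, the share of all genes called was 3.79% higher and 3.95% lower. For Atmp38dKO against WT the shares were 3.92% and 4.36%, and for Atmp38dKO against AtmsKO 3.67% and 3.6%. At these shares fewer than 1 of 8 genes would be called in a direction, so a count of 0 does not set the members apart from all genes.

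Probe by probe, 2 calls were made, both of Ebf1. For AtmsKO against WT, 0 of 13 probes were called, with 4.3% of all probes higher and 4.75% lower. For Atmp38dKO against WT, 1 of 14 was called higher, the Ebf1 probe at 4147, and 0 lower, with 4.69% and 5.07% of all probes. For Atmp38dKO against AtmsKO, 0 of 14 were called higher and 1 lower, the Ebf1 probe at 2329, with 4.4% and 4.07% of all probes. Against AtmsKO, the probe at 4147 was at least 1.88-fold higher in Atmp38dKO where the probe at 2329 was at least 2.03-fold lower, each bound resting on 1 spot at background.

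The median difference over the 8 genes was 0.12 for AtmsKO against WT, with 5 higher and 3 lower, against a median of 0.01 over 28824 genes. It was 0.01 for Atmp38dKO against WT, with 4 higher and 4 lower, against 0.02 over all genes. For Atmp38dKO against AtmsKO it was 0.03, again with 4 higher and 4 lower, against -0.004 over all genes. The members lay between -0.56 and 0.90 for AtmsKO against WT and between -0.35 and 0.38 for Atmp38dKO against WT. For Atmp38dKO against AtmsKO they lay between -0.52 and 0.26. In both comparisons against WT the highest was Ebf1, whose WT value was not well above background. Of the 11 probes measured well above background in both groups compared, 1, 4 and 2 differed by more than 2 times the spot error in the same order of comparisons. For Atmp38dKO against WT, the Cd22 probes at 140 and 2745 were higher, and those of Cd22 at 670 and Pax5 at 7637 were lower. The share of all probes past that limit was not computed, so these counts do not set the members apart from other genes.

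**Figure D2:**
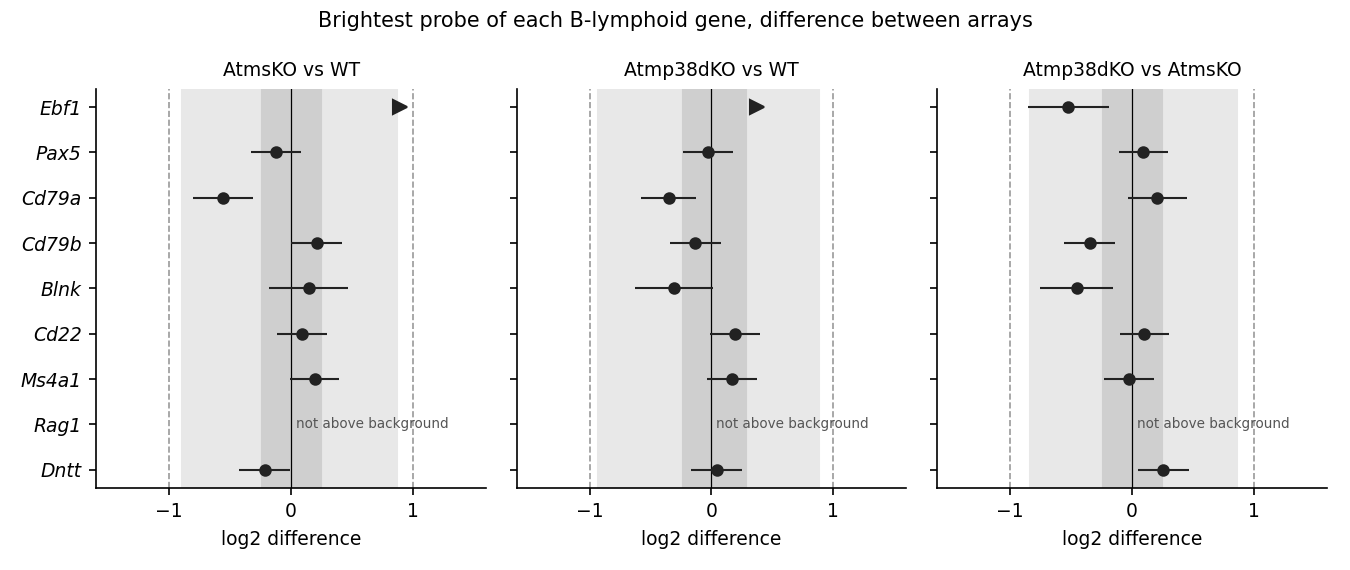
Difference in log2 scaled signal (horizontal axis) of the brightest probe of each of the 9 genes in the 3 comparisons. Points carry the spot error, arrowheads are lower bounds on the size of the difference, the dark and light bands hold the middle 50% and 90% of all genes, and dashed lines mark 2-fold. No plotted value reaches 2-fold, and Ebf1 and Cd79a lie outside the dark band for AtmsKO against WT.

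**Figure D3:**
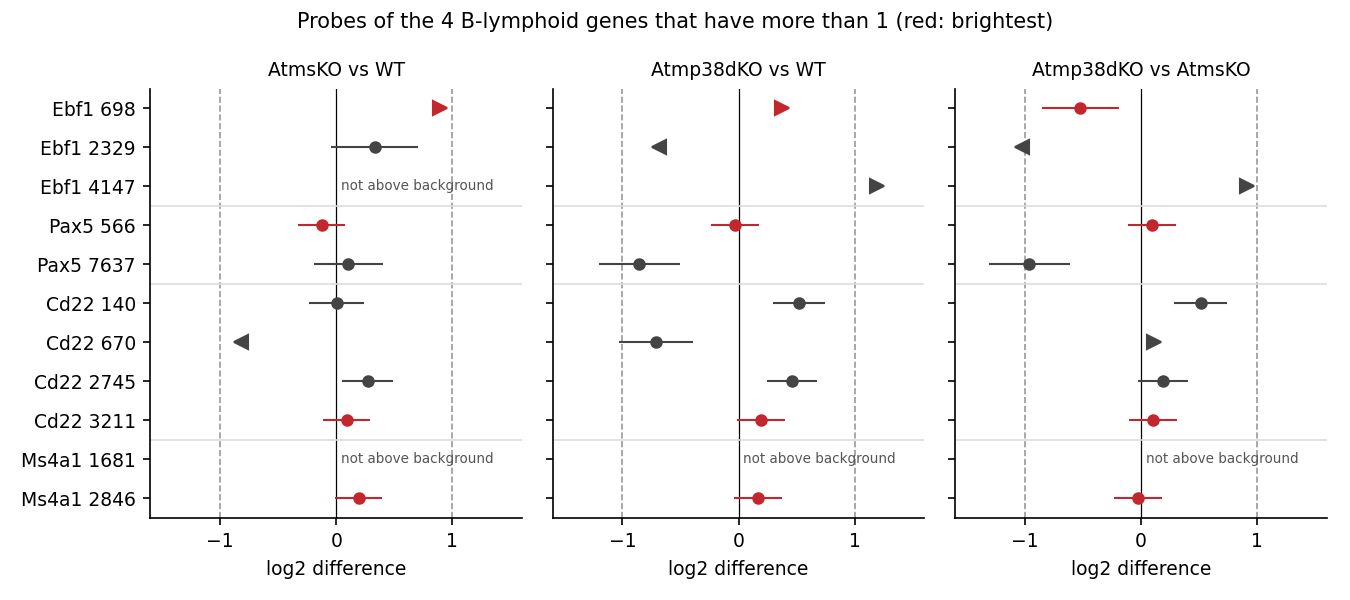
Difference in log2 scaled signal (horizontal axis) of each probe of the 4 genes with more than 1 probe, labelled by gene and transcript position in bases, with the brightest probe in red. Points carry the spot error, and arrowheads are differences with 1 value not well above background. For Atmp38dKO against WT, Cd22 has probes on both sides of 0, as has Ebf1 with its arrowheads. The dim Pax5 probe stands at -0.85 beside -0.03 for the bright one.

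Other B-lineage genes were set beside the members. Of 26 listed genes, 24 were on the array, and 18, 14 and 19 were well above background on the WT, AtmsKO and Atmp38dKO arrays. Rag2, Bank1, Fcrla and Cxcr5 were not well above background on any. The brightest were Ikzf3, Cd37 and Bcl11a, which are transcription factor or surface genes shared with other blood cells, with signals of 877, 653 and 628 in WT. The signals summed over the list were 3213, 3532 and 3991.

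A gene of the precursor B cell stage was among those called in this list. Vpreb1, part of the surrogate light chain, read 32.7 in WT, 5.74 in AtmsKO, not well above background, and 16.1 in Atmp38dKO. WT was at least 5.07-fold higher than AtmsKO and 2.35-fold higher than Atmp38dKO, and Atmp38dKO was at least 2.15-fold higher than AtmsKO. Like Cd79a, Vpreb1 was lowest in AtmsKO, whereas Cd79b and Pou2af1 were highest there after scaling. Cd83, a surface protein of activated B cells and dendritic cells, was lower on both mutant arrays, with 27.4, 6.43 and 5.37, or 4.04-fold and 5.93-fold. Cd72, an inhibitory B cell receptor partner, was higher in Atmp38dKO than in WT by 2.22-fold, with 74.2, 140 and 192, while its other probe well above background went the other way. Pou2af1, a B cell transcription coactivator, was 2.14-fold lower in Atmp38dKO than in AtmsKO, with 19.8, 32.2 and 18.5. In all, 3 of 18 genes considered were called lower and 0 higher for AtmsKO against WT, 2 of 20 lower and 1 higher for Atmp38dKO against WT, and 1 of 19 each way for Atmp38dKO against AtmsKO. Over all genes, the shares called lower and higher were 3.95% and 3.79%, 4.36% and 3.92%, and 3.6% and 3.67%. The list medians were -0.09, -0.20 and 0.01.

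Most early lymphoid regulators were measured. Of 19 genes, 17 were well above background on each array, and Il7r and Lef1 were on none. Il7r encodes the receptor chain for interleukin 7, on which precursor B cells of the mouse depend, and its probe read 4.09, 4.36 and 4.56. The brightest were Sox4, Mef2c and Spi1, with signals of 3312, 1367 and 376 in WT. The calls included Irf8 higher for AtmsKO against WT (6.17 and 12.0, 2.06-fold), and Bach2 and Irf4 lower in Atmp38dKO than in either other group. In all, 1 of 17 genes was called higher and 0 lower for AtmsKO against WT, 1 higher and 2 lower for Atmp38dKO against WT, and 0 higher and 2 lower for Atmp38dKO against AtmsKO. Bach2, a repressor that works in B cell development, read 136, 94.2 and 27.8, which was 5.65-fold lower than WT and 4.14-fold lower than AtmsKO, and the other Bach2 probe agreed in direction against AtmsKO but not against WT. Irf4, which acts in pre-B and plasma cells, read 10.2 in WT and 5.74 in Atmp38dKO and was 2.07-fold lower than WT and 2.45-fold lower than AtmsKO. Over all genes, between 3.6% and 4.36% were called in a direction. The list medians were -0.01 for AtmsKO against WT, -0.13 for Atmp38dKO against WT and -0.12 for Atmp38dKO against AtmsKO.

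All 18 antigen receptor signaling genes were well above background on every array. The brightest were Cd81, Vav1 and Plcg2, at 2219, 750 and 562 in WT. Prkcb, a protein kinase C that acts downstream of the B cell receptor, was higher on both mutant arrays than in WT, with 16.9, 34.4 and 44.5, or 2.14-fold and 2.26-fold. Of its 2 other probes, both moved the same way for Atmp38dKO and 1 for AtmsKO. In all, 1 of 18 genes was called higher and 1 lower for AtmsKO against WT, 1 higher and 0 lower for Atmp38dKO against WT, and 0 either way for Atmp38dKO against AtmsKO. Between 3.6% and 4.36% of all genes were called in a direction. The medians were -0.13, -0.15 and 0.11 in the same order of comparisons. All 11 genes of V(D)J joining and recombination repair were also well above background on every array, where Rag1 and Rag2 were on none. Hmgb1 and Hmgb2, whose products bend DNA at the cut sites, and Xrcc6, part of the end-binding Ku complex, were the brightest, at 12184, 3434 and 479 in WT, and none of the 11 was called in any comparison. The medians were -0.20, -0.06 and 0.13.

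**Figure D4:**
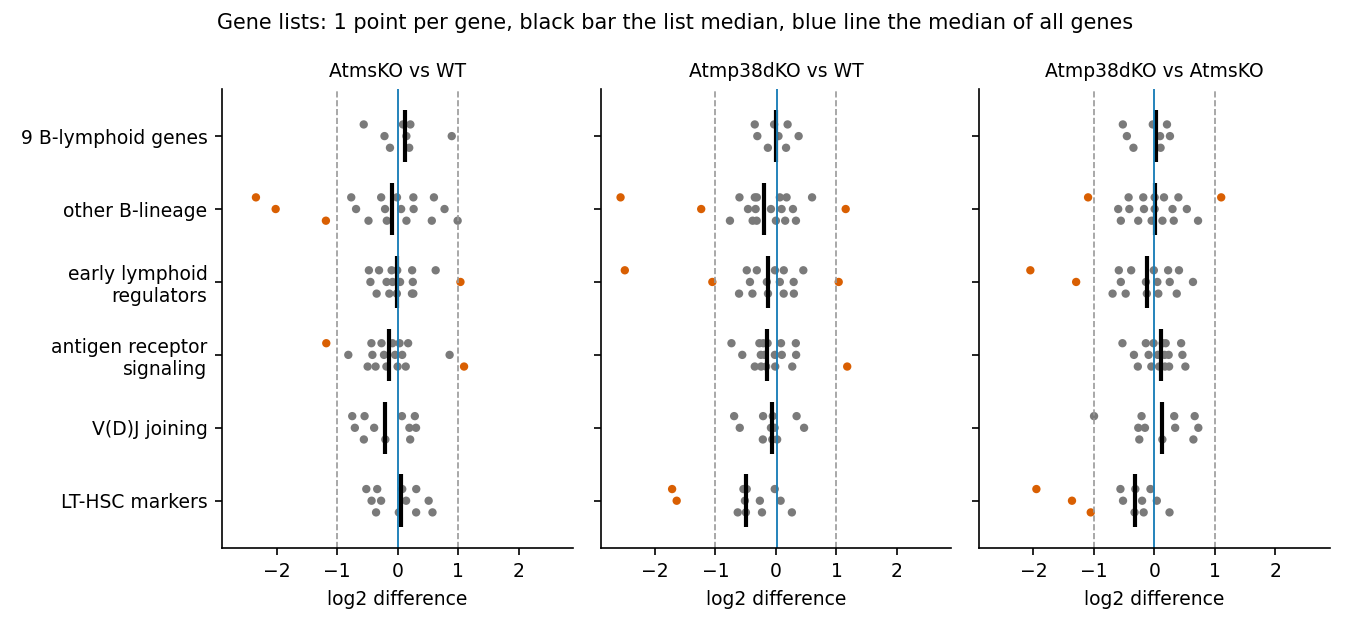
Difference in log2 scaled signal (horizontal axis) of each gene that was well above background on 1 array or both, 1 point per gene, for the 9 B-lymphoid genes and 5 other lists. Points past 2-fold are orange, dashed lines mark 2-fold, black bars are list medians and the blue line is the median of all genes. No B-lymphoid gene is orange, and Vpreb1 and Cd83 of the other B-lineage genes lie farthest to the left for AtmsKO against WT.

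Markers of other blood cells were present at varying signals, and their part in the signals of the B-lymphoid genes was not tested. Of T cell markers, 8 of 10 were well above background on each array, Themis on none, and Cd4 was the brightest at 484, 448 and 608. Their summed signals were 897, 856 and 1512, with Cd4 and Cd8a also counted among the genes selected against. Of NK cell markers 7 or 8 of 8 were well above background (sums 876, 831 and 1097, Prf1 brightest), and all 10 neutrophil markers were on every array (sums 3503, 3968 and 4653, S100a9 brightest). Of plasma cell markers 4 of 6 were well above background on each array, with Jchain, the joining chain of secreted antibodies, and Tnfrsf17 on none (sums 489, 354 and 474, Xbp1 brightest). Of monocyte and dendritic markers 5 or 6 of 8 were, with Ccr2 and Cx3cr1 on none (sums 6744, 6395 and 7266, Siglech brightest). Siglech was read by the brightest of its 3 probes at 3238, 3177 and 3429, and no other was well above background on both arrays of a comparison. Of erythroid markers 7 or 8 of 8 were well above background (sums 1838, 1685 and 2263, Ermap brightest). The signals summed over the 9 B-lymphoid genes were 2403, 2385 and 3086, of which the bright Cd22 probe made up most. In 5 of these 6 other lists, as in the members, the sum was highest in Atmp38dKO, which also had the highest 75th percentile, 118 against 102 for WT and 96.2 for AtmsKO. After scaling, the median over the 12 LT-HSC markers was 0.05 for AtmsKO against WT, -0.49 for Atmp38dKO against WT and -0.32 for Atmp38dKO against AtmsKO, with 10 of 12 lower in each of the last 2, and whether this bears on the B-lymphoid genes was not tested.

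The gene whose 3 scaled levels lay nearest was found for each of the 7 members well above background on all arrays, among 17788 named genes, by Euclidean distance over the 3 arrays. These were Glud1 for Cd22 (distance 0.05 in log2 units), Tmem63b for Pax5 (0.02), Rrp9 for Ms4a1 (0.05), Ccne2 for Cd79a (0.09), Pbk for Cd79b (0.03), Tmem18 for Dntt (0.04) and Rnft2 for Blnk (0.07). None of these is a B-lineage gene of the lists. With 3 arrays, a near level is a description of the signals alone.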

How the data were processed

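The deposited files are scanner output of Agilent Feature Extraction (version 11.5.1.1 in the submitters' processing notes), run by a contractor of the authors. Each spot has a deposited processed intensity, from which background and spatial trend were removed within the array without scaling between arrays, together with an error and flags. Low spots carry surrogate values. The authors also deposited log2 values, which equaled the scaled values used here within 0.02 of a constant for at least 99.8% of probes. Slide and scan were shared by the 3 arrays.

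Controls were left out, as were outlier spots (57 for WT, 75 for AtmsKO, 83 for Atmp38dKO), and spots of a probe were averaged. Log2 of the processed intensity minus the array's 75th percentile was the measure, which removes any change in total RNA. A value not flagged as well above background was set to the lowest scaled value of a probe well above background, unless higher itself. A gene was represented by its probe with the highest mean. A bound ("at least") uses these floored values. RefSeq accessions named 32994 of 56605 probes (assembly GRCm38.p6, names only). Named were the 9 members with every probe, Atm and Mapk14, of the 4 pathway lists the called genes and the 3 brightest, of marker lists the brightest and those on no array, and the nearest gene to each member. Cd28 was named in addition. The results of some list genes that this rule names are not reported here. The members and lists were chosen with earlier results of these data known. Functions were tested on simulated data. Python 3.11.15, pandas 2.3.3, numpy 2.4.6, R 4.3.3 and limma 3.58.1 were used. Alternatives were normexp background correction, quantile normalization, other centring, no floor, the deposited log2 values, the median over a gene's probes, other folds and other flags. With 1 array per group, the number of arrays limits the precision, and no test was run.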

Additional observations from a re-analysis of the deposited data

How the results depend on the processing

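No paired analysis was possible because there is 1 array per group, and for the same reason no replicate could be left out. No member was called at 2-fold, 4-fold or 8-fold in any comparison, nor with any other background correction, scaling, floor, probe rule or flag that was run. The median difference over the members kept within 0.06 and 0.14 for AtmsKO against WT. With the median over all probes of a gene it moved from 0.01 to -0.10 for Atmp38dKO against WT and from 0.03 to -0.22 for Atmp38dKO against AtmsKO, where Pax5 went to -0.44 and -0.43 and Ms4a1 to -0.07 and -0.31. Of 162 differences of single members under the alternatives, 38 moved by more than 0.08 (log2), 19 of them with normexp. That limit is the spread between replicate spots, set mostly by bright probes (260 of 291 in WT had signals of 500 or more). It is smaller than the spot error of a dim member. Counting any probe put 8 members above background on each array, and the flag for a positive and significant signal put 8, 9 and 8 there, with Rag1 entering on the AtmsKO array. Over all genes, the calls depended on the treatment of dim values. In AtmsKO against WT, 1093 higher and 1138 lower became 107 and 95 with normexp, 1313 and 1862 without a floor, and 1327 and 1871 with the deposited log2 values. In Atmp38dKO against WT, 1191 and 1327 became 85 and 135, 1988 and 1560, and 2001 and 1561. In Atmp38dKO against AtmsKO, 1100 and 1079 became 68 and 132, 2300 and 1150, and 2307 and 1159. Asking for both arrays above background left between 702 and 903 calls a direction. Of the 12 medians of the 4 pathway lists, 5 changed sign or went to 0 in some alternative, to values between -0.11 and 0.09. Probes with signals under 15, which include those of Ebf1, Rag1 and Blnk, are limited by their distance from background.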
